A study of Mus musculus with 18 samples.

Results

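The collagen crosslinking and hydroxylation enzymes described here are 10 genes chosen by name: the lysyl oxidases Lox, Loxl1, Loxl2, Loxl3 and Loxl4, the prolyl 4-hydroxylase alpha subunits P4ha1, P4ha2 and P4ha3, and the lysyl hydroxylases Plod1 and Plod2. Each gene was read from its brightest probe set that the array annotation gives a single symbol. This measured 9 of the 10 genes among 19937 genes in all. Loxl2 shares its probe set with another symbol and has no value here. All mice were male C57BL/6J, 10 weeks old and on a chow diet. In the FXR mice, human FXR, a nuclear receptor activated by bile acids, was overexpressed specifically in adipose tissue, while the control mice were wild type. Brown adipose tissue (BAT), which burns lipid for heat, came from 5 mice of each genotype. White adipose tissue (WAT), which stores lipid, came from 4 mice of each genotype. Per the labels, the mice of a group are biological replicates. The labels name neither the promoter of the transgene nor the WAT depot, and do not tie BAT to WAT samples of a mouse. For control BAT 2 and 4 the RNA preparation note also names 6 weeks of feeding.

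Fibrillar collagen is modified on both sides of the cell membrane. In the endoplasmic reticulum, prolyl 4-hydroxylases hydroxylate prolines, which stabilises the triple helix at body temperature, and lysyl hydroxylases hydroxylate lysines, which can then carry sugars or take part in crosslinks. After secretion, the copper enzymes of the lysyl oxidase family oxidise lysines of collagen and elastin, and the aldehydes that form condense into the crosslinks that make the matrix stiff and insoluble. In adipose tissue, fibroblast-like stromal cells make most of the fibrillar matrix, and adipocytes also express several of these enzymes.

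Values are log2 of the deposited intensity plus 1, so that a difference of 1 is a doubling, and a gene is said to have risen or fallen where its adjusted p was below 0.05. Tests were made with limma on all 19937 genes, with Benjamini-Hochberg adjustment over all of them. Array medians were 93.1 to 99.9 in BAT and 60.5 to 61.7 in WAT, and 58.2% to 62.8% of WAT probe sets lay near the bottom of the scale against 28.7% to 34.9% in BAT. A gene near the bottom of the scale, here called dim, has an intensity within 1.5-fold of its array's 1% quantile. On the log2 scale this limit lay at 6.24 to 6.31 on BAT arrays and at 6.09 to 6.15 on WAT arrays. The brown adipocyte markers Ucp1, Cidea and Elovl3 were dim on all 8 WAT arrays, and none was dim on all arrays of a BAT group. The probe set for mouse Nr1h4, the gene of FXR, differed by 0.05 ± 0.03 in BAT and by 0.03 ± 0.04 in WAT (SE). It does not check the human transgene. The summed intensity of 12 skeletal muscle markers was 29640, 21292 and 29234 on FXR BAT 1, 2 and 4, against 1534 and 6507 on FXR BAT 3 and 5 and 1341 to 9185 in control BAT. The sum of 5 epididymis markers was 1070 on FXR WAT 1 and 271 to 357 on the other WAT arrays. Results that rest on these arrays are also given without them. RNA came from whole tissue, so more RNA per cell and more cells of the type that makes it cannot be told apart.

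In BAT, Lox, Loxl3, Loxl4, P4ha2 and Plod2 rose in FXR mice, 5 of the 9 measured enzymes, and no enzyme fell. Of all genes tested in this comparison, 15.8% passed the threshold, 7.01% rose and 8.75% fell. The median difference of the 9 enzymes was 0.28, against 0.01 for all genes. In WAT, Loxl1 rose, 1 of the 9, where 1.33% of all genes passed and 0.873% rose. There the median of the enzymes was 0.21, against 0.00 for all genes, and 5 of the 9 had an unadjusted p below 0.05, as did 12.5% of all genes. The FXR arrays lay entirely above the control arrays for Lox, Loxl3, P4ha2 and Plod2 in BAT, which held for 5.89% of all genes. In WAT they did so for Lox, Loxl1, P4ha2, Plod1 and Plod2, which held for 4.31% of all genes.

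**Figure D1:**
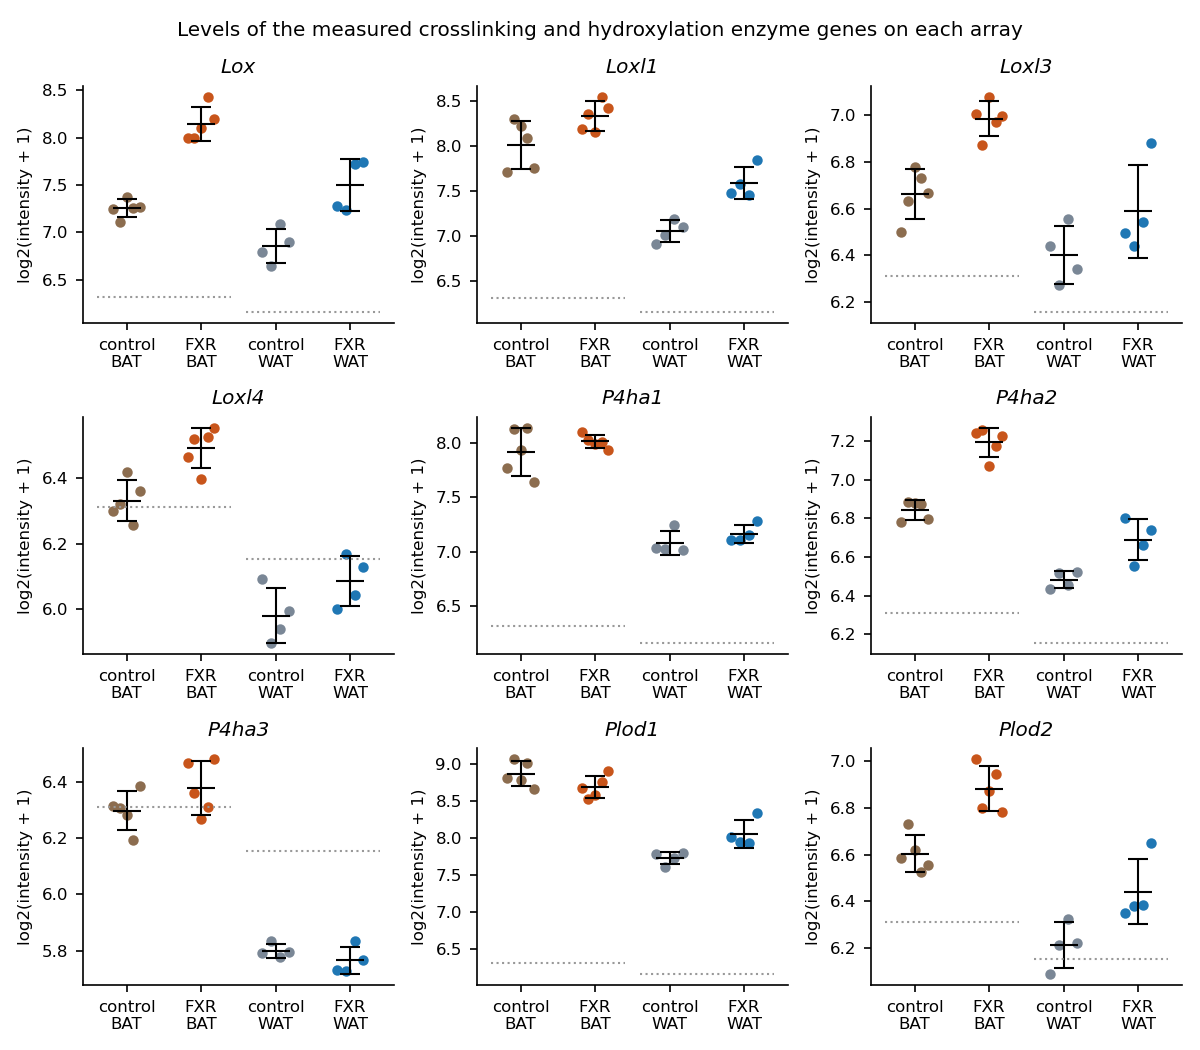
Log2(intensity + 1) of the 9 measured enzymes on each of the 18 arrays, 1 panel per gene with the 4 groups on the horizontal axis, the mean and SD of each group, and a dotted line at the limit of dim signal. The FXR BAT arrays of Lox lie from 7.99 to 8.43, all above the control BAT arrays at 7.11 to 7.38, while P4ha1 overlaps in both tissues.

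Lox, the founding member of the family and the enzyme whose loss weakens the aorta, had the largest difference of the 9 enzymes in BAT. Its log2 values on control BAT arrays 1 to 5 were 7.25, 7.11, 7.38, 7.26 and 7.27. On FXR BAT arrays 1 to 5 they were 7.99, 7.99, 8.11, 8.43 and 8.20. Every FXR array lay above every control array, and FXR BAT 4 was the highest. Lox rose by 0.89 ± 0.08 log2 units (SE, n = 5 and 5), or 1.86-fold, with a 95% interval of 0.71 to 1.07 and adjusted p = 7.63e-05 (limma). It ranked 170 by size of difference among all 19937 genes. In WAT the control arrays 1 to 4 read 6.80, 6.65, 7.08 and 6.89, and the FXR arrays 7.28, 7.24, 7.73 and 7.75. The WAT groups did not overlap either, and FXR WAT 3 and 4 stood above FXR WAT 1 and 2. The difference of 0.64 ± 0.14 (SE, n = 4 and 4, 95% interval 0.33 to 0.96), or 1.56-fold, missed the threshold with adjusted p = 0.0657 (limma). Without FXR WAT 1 it was 0.72 ± 0.14 (adjusted p = 0.0753, limma). In 4 of 17 other settings the call was made, with adjusted p from 0.00815 to 0.0336 (limma).

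Loxl1, the family member tied to elastic fibre upkeep and elastin renewal, was the 1 enzyme that rose in WAT. Its control WAT values on arrays 1 to 4 were 6.91, 7.01, 7.19 and 7.10, and its FXR WAT values were 7.48, 7.58, 7.46 and 7.84. The lowest FXR array was above the highest control array. The rise was 0.54 ± 0.09 (SE, n = 4 and 4, 95% interval 0.33 to 0.74), or 1.45-fold, with adjusted p = 0.0315 (limma). The call was lost without control WAT 1, 2 or 4 or FXR WAT 1 or 2, with adjusted p from 0.0546 to 0.109 (limma), and the difference ranged from 0.45 to 0.58 over all 8 arrays left out in turn. FXR WAT 1 is the array with the epididymis signal, and without it the difference was 0.57 ± 0.10. In BAT the control arrays 1 to 5 read 7.71, 8.30, 8.22, 8.09 and 7.75, and the FXR arrays 8.20, 8.36, 8.15, 8.55 and 8.42. Control BAT 1 and 5 were low, and the other 3 control arrays lay at or near the FXR arrays. The BAT difference of 0.32 ± 0.12 (SE, n = 5 and 5, 95% interval 0.05 to 0.59) had adjusted p = 0.105 (limma).

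Loxl3, which is known for its part in palate and cartilage collagen, rose in BAT at a low level. The control arrays 1 to 5 read 6.50, 6.63, 6.78, 6.73 and 6.66, and the FXR arrays 7.01, 6.87, 7.08, 6.97 and 7.00. The groups did not overlap. The rise was 0.32 ± 0.05 (SE, n = 5 and 5), or 1.25-fold, with adjusted p = 0.00252 (limma). In WAT the control arrays 1 to 4 read 6.44, 6.27, 6.56 and 6.34, and the FXR arrays 6.49, 6.44, 6.54 and 6.88. Only FXR WAT 4 lay above the control range, and the difference was 0.19 ± 0.10 (SE, n = 4 and 4, 95% interval -0.04 to 0.41, adjusted p = 0.507, limma).

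Loxl4 was dim on 2 of 5 control BAT arrays, on all 4 control WAT arrays and on 3 of 4 FXR WAT arrays. Its BAT values were 6.30, 6.32, 6.42, 6.26 and 6.36 in controls 1 to 5 and 6.47, 6.52, 6.40, 6.53 and 6.55 in FXR mice. FXR BAT 3 lay within the control range. Loxl4 rose by 0.16 ± 0.04 (SE, n = 5 and 5), or 1.12-fold, with adjusted p = 0.0204 (limma), a call lost in 8 of 21 other settings. These include the fits without control BAT 2, control BAT 4 or FXR BAT 5, with adjusted p of 0.0503, 0.0521 and 0.0505 (limma). The dimmer of its pair of probe sets differed by 0.05 in BAT. In WAT its difference was 0.10 ± 0.05 (SE, n = 4 and 4), close to background on nearly all arrays.

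The prolyl 4-hydroxylase is a tetramer of alpha subunits, encoded by P4ha1, P4ha2 or P4ha3, with protein disulfide isomerase, encoded by P4hb. P4ha2 rose in BAT. Its control BAT values on arrays 1 to 5 were 6.78, 6.88, 6.88, 6.88 and 6.79, and its FXR BAT values were 7.24, 7.26, 7.07, 7.17 and 7.23. All FXR arrays lay above all control arrays, and the control arrays spread over only 0.05 (SD). The rise was 0.35 ± 0.04 (SE, n = 5 and 5), or 1.27-fold, with adjusted p = 0.000308 (limma). In WAT the control arrays 1 to 4 read 6.43, 6.52, 6.46 and 6.52, and the FXR arrays 6.80, 6.56, 6.66 and 6.74. The groups again did not overlap, by a narrow gap at FXR WAT 2. The difference of 0.21 ± 0.05 (SE, n = 4 and 4, 95% interval 0.09 to 0.33) had adjusted p = 0.120 (limma). The highest array was FXR WAT 1, which has the epididymis signal. Without it the difference was 0.17 ± 0.05 (adjusted p = 0.209, limma).

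P4ha1, the widely expressed alpha subunit, did not pass in either tissue. Its BAT values were 7.77, 8.13, 7.93, 8.14 and 7.64 in controls 1 to 5 and 8.10, 8.03, 7.99, 8.01 and 7.94 in FXR mice. The FXR arrays lay inside the control range. The difference was 0.09 ± 0.09 (SE, n = 5 and 5, 95% interval -0.10 to 0.29, adjusted p = 0.571, limma). In WAT the controls 1 to 4 read 7.03, 7.03, 7.24 and 7.01 and the FXR arrays 7.11, 7.10, 7.15 and 7.28. Control WAT 3 stood above the other 3 controls and above 3 FXR arrays. The difference was 0.08 ± 0.06 (SE, n = 4 and 4, 95% interval -0.05 to 0.22, adjusted p = 0.666, limma). The intervals leave room for a rise of up to 0.29 in BAT and 0.22 in WAT.

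P4ha3, the third alpha subunit, was dim on all 8 WAT arrays and on 1 control BAT array. Its values ran from 6.19 to 6.39 in control BAT and from 6.27 to 6.48 in FXR BAT, and these ranges overlapped. Its difference was 0.08 ± 0.05 in BAT (adjusted p = 0.345, limma, n = 5 and 5, SE) and -0.03 ± 0.03 in WAT (SE, n = 4 and 4, adjusted p = 0.756, limma). A signal this dim can hide a change.

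P4ha1, P4ha2 and the lysyl hydroxylase gene Plod1 are known targets of the hypoxia-inducible factor HIF. Their promoters are shown because P4ha2 rose in BAT and P4ha1 did not pass while both hold the short motif ACGTG. Plod1 is shown as a gene without ACGTG whose BAT difference did not pass. Each is the 250 bases before the annotated start, from RefSeq on GRCm38.p6, written 5′ to 3′ in the sense of the gene, with capitals marking the core of the hypoxia response element (ACGTG, or CACGT on the other strand). P4ha2 is at chr11:54100674-54100923 (plus strand), P4ha1 at chr10:59323046-59323295 (plus strand) and Plod1 at chr4:147936777-147937026 (minus strand).
P4ha2: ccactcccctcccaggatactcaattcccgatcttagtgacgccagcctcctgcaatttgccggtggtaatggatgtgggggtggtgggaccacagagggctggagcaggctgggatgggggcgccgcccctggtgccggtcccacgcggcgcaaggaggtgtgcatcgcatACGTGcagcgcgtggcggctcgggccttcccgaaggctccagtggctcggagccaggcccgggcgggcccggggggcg
P4ha1: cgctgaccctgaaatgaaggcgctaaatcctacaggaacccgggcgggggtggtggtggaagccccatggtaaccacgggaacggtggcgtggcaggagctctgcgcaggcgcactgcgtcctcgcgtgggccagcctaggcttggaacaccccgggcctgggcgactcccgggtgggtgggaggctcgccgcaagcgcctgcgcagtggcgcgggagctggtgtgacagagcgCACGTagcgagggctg
Plod1: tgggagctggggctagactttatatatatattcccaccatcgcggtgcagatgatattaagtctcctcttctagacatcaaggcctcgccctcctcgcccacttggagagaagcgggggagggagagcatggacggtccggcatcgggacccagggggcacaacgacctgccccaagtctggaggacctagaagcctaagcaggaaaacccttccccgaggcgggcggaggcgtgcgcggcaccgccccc

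The P4ha2 match starts 78 bases before the start, on the strand of the gene, and the P4ha1 match 16 bases before it, on the other strand. ACGTG, searched on both strands, was found in 16.6% of 32851 promoters of this length. Of the 10 enzymes, 5 were in the promoter table, and Loxl4, P4ha3 and Plod1 held no ACGTG there. Loxl4 rose in BAT, while P4ha3 and Plod1 did not pass. CAGAC, the core of the element bound by SMAD proteins, was in the windows of Loxl4 and Plod1 and in 42.2% of all promoters. AGGTCA, a motif of nuclear receptors, was in none of the 5 windows and in 14.0% of all promoters. No searched motif overlapped another in these windows. Such matches describe letters and show no binding.

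Lysyl hydroxylase 2, encoded by Plod2, acts on the telopeptides of collagen and gives rise to the more stable hydroxyallysine crosslinks. Plod2 rose in BAT. Its control BAT values on arrays 1 to 5 were 6.59, 6.73, 6.62, 6.53 and 6.56, and its FXR BAT values were 7.01, 6.80, 6.87, 6.94 and 6.78. The groups did not overlap, with control BAT 2 close to FXR BAT 5. The rise was 0.28 ± 0.05 (SE, n = 5 and 5), or 1.21-fold, with adjusted p = 0.00487 (limma). In WAT the controls 1 to 4 read 6.09, 6.21, 6.33 and 6.22 and the FXR arrays 6.35, 6.38, 6.38 and 6.65. Plod2 was dim on control WAT 1. The gap between the groups was small, and FXR WAT 4 stood apart from the other 3. The difference of 0.23 ± 0.07 (SE, n = 4 and 4, 95% interval 0.06 to 0.40) had adjusted p = 0.210 (limma). Without FXR WAT 1 it was 0.26 ± 0.08 (adjusted p = 0.235, limma).

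Plod1, lysyl hydroxylase 1, acts on helical lysines and is the enzyme lost in kyphoscoliotic Ehlers-Danlos syndrome. Its BAT values were 8.81, 9.07, 8.79, 9.01 and 8.67 in controls 1 to 5 and 8.68, 8.53, 8.58, 8.75 and 8.91 in FXR mice. FXR BAT 2 and 3 lay below all controls, and the other FXR arrays lay within the control range. The difference of -0.18 ± 0.09 (SE, n = 5 and 5, 95% interval -0.37 to 0.01) had adjusted p = 0.216 (limma). In WAT the controls 1 to 4 read 7.78, 7.61, 7.72 and 7.80 and the FXR arrays 8.01, 7.94, 7.93 and 8.33. Here all FXR arrays lay above all controls, with FXR WAT 4 the highest. The WAT difference of 0.33 ± 0.09 (SE, n = 4 and 4, 95% interval 0.13 to 0.53) had adjusted p = 0.136 (limma). Without FXR WAT 1 it was 0.34 ± 0.10 (adjusted p = 0.209, limma).

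**Figure D2:**
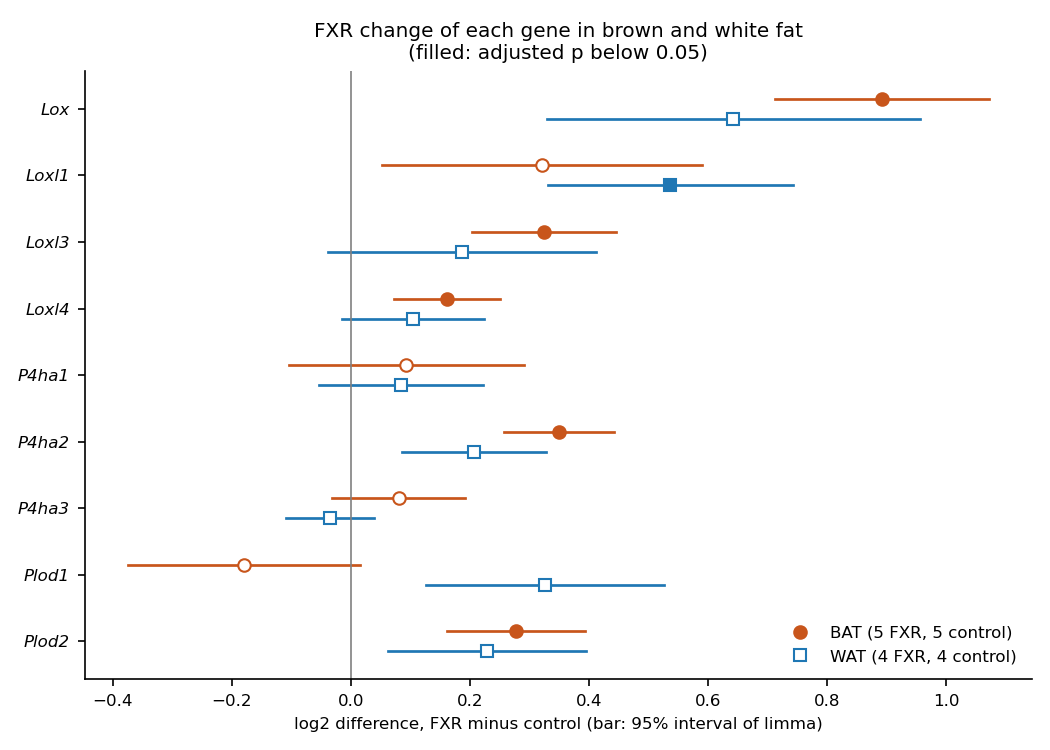
Log2 difference, FXR minus control, of the 9 measured enzymes in BAT and in WAT, with 95% intervals. Filled points passed adjusted p below 0.05. Plod1 is at -0.18 in BAT and 0.33 in WAT, and the other enzymes lie between -0.03 and 0.89.

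Whether FXR acted differently in the tissues was tested as the WAT difference minus the BAT difference over all 18 arrays. Plod1 was the 1 of 9 enzymes that passed, where 6.46% of all genes passed and 4.44% did so with a positive value, which includes genes with a larger fall in BAT than in WAT. Its value was 0.51 ± 0.13 (SE, 95% interval 0.22 to 0.79, adjusted p = 0.0317, limma). The call was lost in 9 of 28 other settings, with values from 0.39 to 0.57. Among these were the fits without control BAT 2, control BAT 4, FXR BAT 2, control WAT 2, control WAT 3 or FXR WAT 4, at adjusted p from 0.0505 to 0.0714 (limma). It was also lost after quantile normalization (adjusted p = 0.131, limma). Without control BAT 2 and 4 the adjusted p was 0.124, and without FXR BAT 1, 2 and 4 it was 0.119 (limma). For Lox the value was -0.25 ± 0.16 (SE, 95% interval -0.60 to 0.10, adjusted p = 0.451, limma) and for Loxl1 0.22 ± 0.17 (SE, 95% interval -0.14 to 0.57, adjusted p = 0.553, limma). Thus the calls of Lox in BAT and of Loxl1 in WAT are not shown to differ between the tissues. For P4ha2 and Plod2 the values were -0.14 ± 0.07 and -0.05 ± 0.09 (SE), and the adjusted p of the 8 enzymes that missed ran from 0.257 to 0.980 (limma).

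Related enzymes were also compared within each array, as the log2 value of one minus that of the other, a comparison added after the values had been seen. Each pair set an enzyme that rose in BAT against a related one that did not pass there. The adjustment over the tests does not cover this choice. In BAT, the Lox minus Loxl1 value was higher in FXR mice by 0.57, with FXR arrays at 0.40 to 0.72 and control arrays at -0.43 to 0.30 around the control mean. These groups did not overlap (exact permutation test, two-sided, p = 0.00794, the smallest that 252 arrangements allow, adjusted p = 0.0476 over the 6 tests made). Plod2 minus Plod1 was higher by 0.46 in FXR BAT, with FXR BAT 5 at 0.14 inside the control range of -0.22 to 0.16 (exact permutation p = 0.0159, adjusted p = 0.0476). P4ha2 minus P4ha1 was higher by 0.26, with FXR arrays at 0.15 to 0.37 and control BAT 5 at 0.23 (exact permutation p = 0.0238, adjusted p = 0.0476). Of these 3 results, Plod2 minus Plod1 missed an unadjusted p of 0.05 without control BAT 2 and 4 (0.36, exact permutation p = 0.0536) and without FXR BAT 1, 2 and 4 (0.35, exact permutation p = 0.0952). P4ha2 minus P4ha1 missed it without FXR BAT 5 (0.23, exact permutation p = 0.0556), without control BAT 2 and 4 (0.14, exact permutation p = 0.107) and without FXR BAT 1, 2 and 4 (0.26, exact permutation p = 0.143). In the last setting 2 FXR arrays remain, and the few arrangements hardly allow a p below 0.05. Lox minus Loxl1 had 0.62 there (exact permutation p = 0.0476). In WAT the same 3 values were 0.11 for Lox minus Loxl1, -0.10 for Plod2 minus Plod1 and 0.12 for P4ha2 minus P4ha1, with exact permutation p of 0.486, 0.343 and 0.286, where 70 arrangements allow no less than 0.0286.

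**Figure D3:**
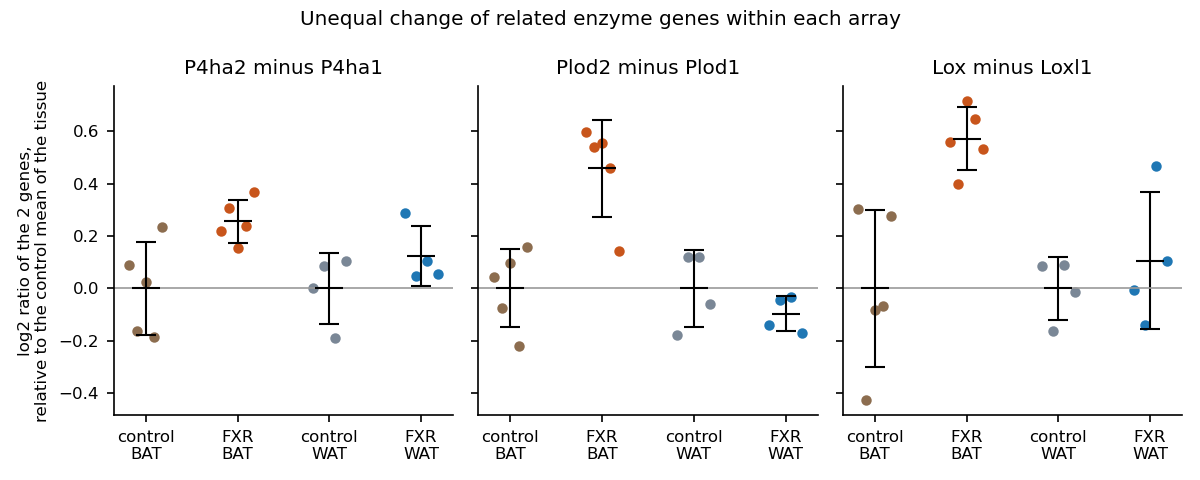
Log2 value of one enzyme minus that of a related enzyme on each array, relative to the control mean of the tissue, with the mean and SD per group. In BAT the FXR arrays of Lox minus Loxl1 lie at 0.40 to 0.72 and the control arrays at -0.43 to 0.30, and in WAT the groups overlap for all 3 pairs.

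Of 29 measured partners of these enzymes in the endoplasmic reticulum and in procollagen processing, 16 rose in BAT, 13 did not pass and no partner fell, with a median of 0.16. Over all genes 7.01% rose there. Pcolce, which enhances the cleavage of the procollagen C-propeptide, rose by 1.54 ± 0.11 (SE, n = 5 and 5, adjusted p = 1.58e-05, limma). Bmp1, the protease that cleaves the C-propeptide and also activates pro-lysyl oxidase, rose by 0.53 ± 0.07, and Sec24d, a coat protein of procollagen export, by 0.60 ± 0.06. Serpinh1, the collagen chaperone HSP47, rose by 0.31 ± 0.05, and P4hb, the beta subunit shared by all prolyl 4-hydroxylases, by 0.48 ± 0.07. The prolyl 3-hydroxylases P3h1, P3h2 and P3h3 rose by 0.18, 0.34 and 0.30. Plod3, the third lysyl hydroxylase, which also glycosylates hydroxylysine, rose by 0.15 ± 0.04 (adjusted p = 0.0366, limma). The galactosyltransferase Colgalt1 differed by 0.17 and did not pass. In WAT, where 0.873% of all genes rose, 4 of the 29 partners rose and none fell, with a median of 0.16. They were Serpinh1 (0.40 ± 0.07), Tmem38b, an endoplasmic reticulum ion channel (0.42 ± 0.08), Sec24d (0.26 ± 0.05) and Bmp1 (0.33 ± 0.06, adjusted p = 0.0498, limma). All 4 calls were lost without FXR WAT 1, while the median of the list stayed at 0.15. The WAT minus BAT value of Pcolce was -0.84 ± 0.19 (adjusted p = 0.0136, limma), that of P3h2 -0.35, that of P3h3 -0.25 and that of Sec24d -0.34, and these 4 partners passed. Over all 19937 genes, 6.46% passed this test, and 403 passed with a negative value. Without FXR BAT 1, 2 and 4, 1 of the 29 partners passed it, with a negative value. Without control BAT 2 and 4, 1 partner passed with a positive value and 4 with a negative value.

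Among the substrates, 15 of 44 collagen chains rose in BAT and 4 of 44 in WAT, and no chain fell in either. Of all genes, 7.01% rose in BAT and 0.873% in WAT. In BAT the chains with the smallest adjusted p were Col6a1 (0.85), Col8a1 (1.48), Col14a1 (1.75), Col6a2 (0.72), Col1a2 (1.53) and Col5a1 (0.54). In WAT the risen chains were Col6a2 (0.87), Col6a1 (0.89), Col15a1 (0.65) and Col12a1, which was dim on all 4 control WAT arrays, so that the size of its rise is not given. The median over all 44 chains was 0.08 in BAT and 0.06 in WAT, and 16 of the 44 were dim on all control WAT arrays. Of 15 elastic fibre genes, 11 rose in BAT and 6 in WAT, and none fell. Mfap4, a microfibril protein, rose by 1.65 ± 0.06 in BAT and by 0.66 ± 0.11 in WAT, and Fbln2 by 1.43 ± 0.07 and 0.93 ± 0.13. Eln, tropoelastin itself and a direct substrate of Lox and Loxl1, rose in WAT by 1.54 ± 0.28 (SE, n = 4 and 4, adjusted p = 0.0383, limma) and in BAT by 1.25 (adjusted p = 0.00113, limma). The elastic fibre median was 0.36 in BAT and 0.39 in WAT. Without FXR WAT 1, 2 collagen chains and 4 elastic fibre genes rose in WAT.

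**Figure D4:**
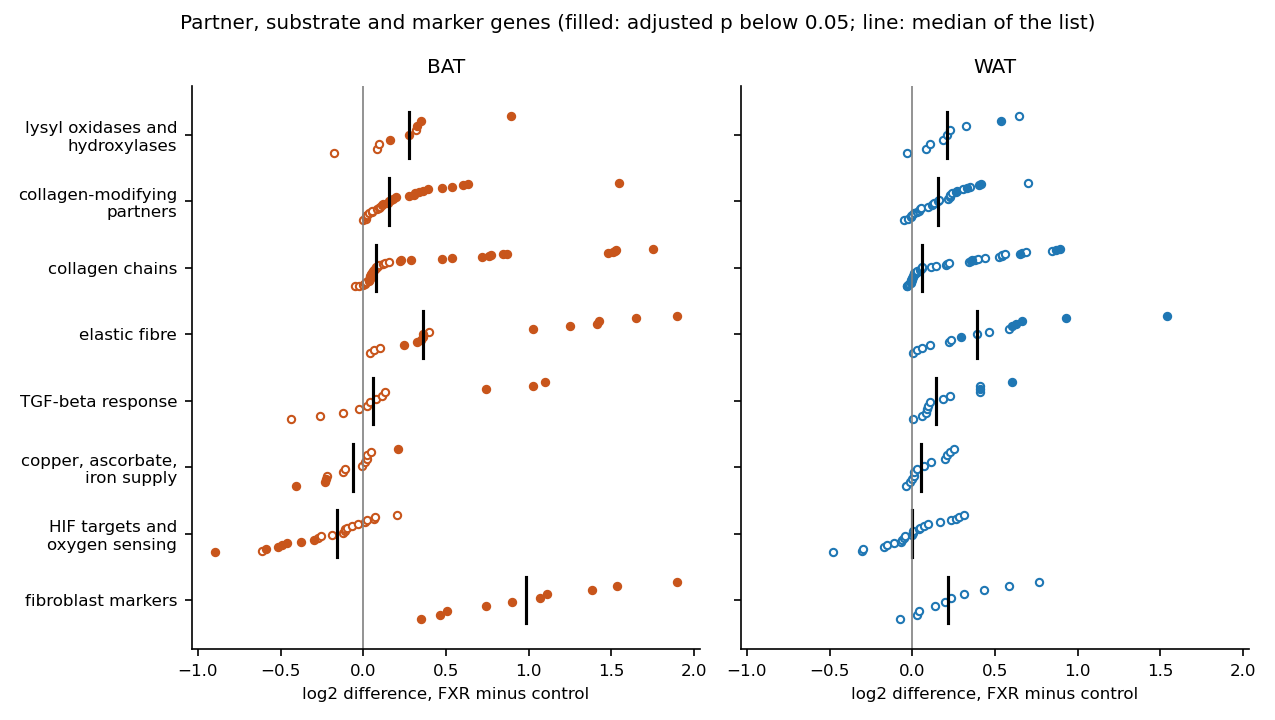
Log2 difference, FXR minus control, of each measured gene of 8 gene lists in BAT and in WAT, with the median of each list marked. The elastic fibre genes have medians of 0.36 and 0.39, and the HIF genes lie at a median of -0.16 in BAT and 0.00 in WAT.

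These enzymes need copper, ascorbate and iron, so 12 genes of their supply were read. In BAT, Slc31a2, a copper transporter of internal membranes, rose by 0.21, while Atox1, a copper chaperone, fell by 0.41, Slc31a1, the copper importer CTR1, by 0.23 and Slc11a2, the iron transporter DMT1, by 0.23. Of all genes, 7.01% rose and 8.75% fell in BAT. In WAT 0 of the 12 passed in limma, and 2 had an unadjusted p below 0.05, as did 12.5% of all genes. The WAT minus BAT value passed for Atox1 (0.63 ± 0.12), Slc31a1 (0.42 ± 0.11) and Slc11a2 (0.35 ± 0.09). Over all genes, 6.46% passed this test, and 4.44% did so with a positive value. Without control BAT 2 and 4 all 4 BAT calls were lost, and without FXR BAT 1, 2 and 4, 1 gene fell and none rose in BAT. The WAT minus BAT value then passed for 2 of the 12 genes in the first of these settings and for 1 in the second, with positive values.

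HIF induces P4ha1, P4ha2, Plod1, Plod2 and Lox in many cells, so 22 other HIF target and oxygen-sensing genes were set beside them. In BAT, 7 of the 22 fell and none rose, with a median of -0.16, where 8.75% of all genes fell. The part of HIF in the enzyme results was not tested. Egln1, the prolyl hydroxylase PHD2 that marks HIF for degradation, fell by 0.46 ± 0.06, Epas1, the HIF-2 alpha subunit, fell by 0.52 ± 0.08, and Pfkfb3, a glycolytic regulator, fell by 0.59 ± 0.10. Hk2 fell by 0.90 ± 0.17 and Vegfa by 0.49 ± 0.12. Without FXR BAT 1, 2 and 4, 8 of the 22 fell and 1 rose, and without control BAT 2 and 4, 4 fell and none rose. In WAT 0 of the 22 passed in limma, with a median of 0.00, and 5 had an unadjusted p below 0.05, as did 12.5% of all genes. TGF-beta is a known inducer of Lox and of several hydroxylases. Of 12 TGF-beta ligand, receptor and response genes, 3 rose in BAT, namely Tgfb3 (1.02 ± 0.04), Tgfbi (1.10 ± 0.10) and Ccn2 (0.74 ± 0.07). In WAT 2 rose, namely Tgfb3 (0.41 ± 0.06) and Pmepa1 (0.60 ± 0.09). Tgfb3 is a ligand, so these counts do not measure the response alone. None fell in either tissue, and the medians were 0.06 and 0.15. Over all genes, 7.01% rose in BAT and 0.873% in WAT. Without FXR WAT 1, 1 of the 12 rose in WAT.

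Most markers of stromal cells rose in BAT, where 5 of the 9 enzymes rose. The shares over all genes there were 7.01% rising and 8.75% falling. All 10 fibroblast markers rose there, with a median of 0.98, and their summed intensity was 8214 to 9799 in FXR BAT against 3554 to 5442 in control BAT. Of 9 macrophage markers 8 rose (2369 to 3010 against 1222 to 1737 summed), and of 8 smooth muscle and pericyte markers 6 rose (4135 to 4715 against 3025 to 3313). Of 9 adipocyte markers 7 fell and 1 rose, and of 8 endothelial markers 2 fell. Of 12 skeletal muscle markers 2 rose, with a median of 1.74, which was -0.03 without FXR BAT 1, 2 and 4. No fibroblast or macrophage marker was dim on all arrays of a BAT group. In WAT 0 of the 10 fibroblast markers passed in limma, and 4 had an unadjusted p below 0.05, as did 12.5% of all genes. Their sums overlapped, at 5489 to 6397 in FXR against 4034 to 6342 in control mice. The summed smooth muscle and pericyte markers of WAT did not overlap, at 1573 to 2265 in FXR against 1208 to 1565 in control mice. The 2265 was on FXR WAT 1, the array with the epididymis signal, and the other FXR sums were 1573 to 1691. Of these 8 markers 1 rose in WAT, where 0.873% of all genes rose, and 3 had an unadjusted p below 0.05. Without FXR WAT 1, again 1 of the 8 rose. The WAT minus BAT value passed for 8 of the 10 fibroblast markers, all with the larger change in BAT. Over all 19937 genes, 6.46% passed this test, and 403 passed with a negative value. Without FXR BAT 1, 2 and 4, 6 of the 10 markers passed it, and without control BAT 2 and 4, 8 passed. The part of these cell types in the enzyme results was not tested.

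The BAT results were recomputed without FXR BAT 1, 2 and 4, the arrays with high muscle signal. There, Lox differed by 0.90 ± 0.07 (adjusted p = 0.000235, limma), Loxl3 by 0.38 ± 0.07 (adjusted p = 0.0144, limma) and P4ha2 by 0.30 ± 0.06 (adjusted p = 0.0132, limma). Plod2 then differed by 0.22 ± 0.06 (adjusted p = 0.0546, limma) and Loxl4 by 0.14 ± 0.06 (adjusted p = 0.202, limma), so that 3 rather than 5 enzymes passed, with 2 FXR arrays left. The partners then counted 12 rises, the collagen chains 13, the elastic fibre genes 10 and the fibroblast markers 9. The sum of muscle markers was within the control range on FXR BAT 3 and 5. Without control BAT 2 and 4, 4 enzymes passed, all but Loxl4 (0.13, adjusted p = 0.142, limma).

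Between the control tissues, all 9 enzymes had higher deposited values in BAT than in WAT, from 0.26 for Loxl3 to 1.14 for Plod1. This was so for 94.8% of all genes, whose median difference was 0.59, and 96.8% passed in either direction, so the count carries no information on these enzymes. With all 18 arrays brought to 1 distribution (quantile normalization), 8 of the 9 turned lower in BAT, from -0.63 for Lox to -0.24 for Loxl4, and P4ha3 was at 0.05. With each array centred on its median, Lox (-0.27), Loxl3 (-0.40), Loxl4 (-0.31), P4ha2 (-0.30), P4ha3 (-0.16) and Plod2 (-0.27) were lower in BAT, and Loxl1, P4ha1 and Plod1 were higher. Each of the 9 enzymes thus changed sign under 1 or both scalings, and no direction between the tissues is given for them. The direction of the FXR differences within each tissue was kept under both scalings for all 9 enzymes.

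**Figure D5:**
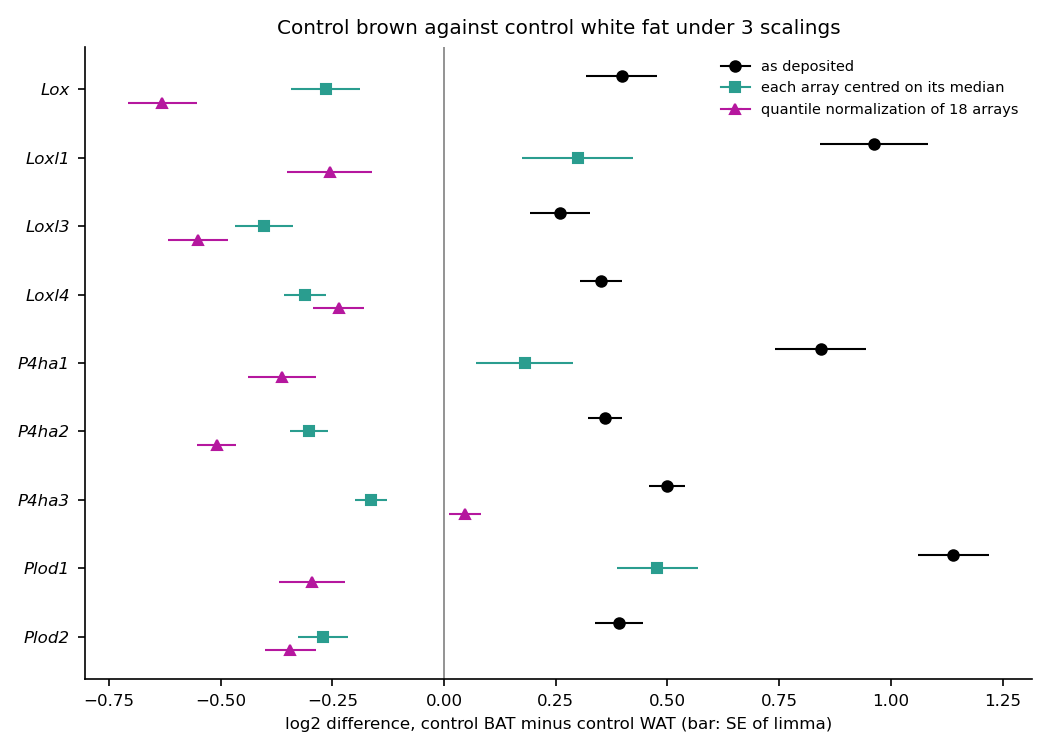
Control BAT minus control WAT on the log2 scale for the 9 measured enzymes, with SE, as deposited, after quantile normalization of all 18 arrays and with each array centred on its median. Lox is at 0.40, -0.63 and -0.27 under the 3 scalings.

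The genes whose log2 values ran most closely with those of Lox over the 10 BAT arrays were Thbs4, Kcne4 and Islr, with Pearson correlations of 0.990, 0.989 and 0.989. For P4ha2 they were Cdsn, Ces2g and S100a6, at 0.981, 0.979 and 0.975, and for Loxl3 they were Heph, Abca9 and Mxra8, at 0.977, 0.973 and 0.970. Over the 8 WAT arrays, Lox ran most closely with Ccn2, Arhgef19 and Phtf2, at 0.972, 0.968 and 0.967. These are descriptions over arrays that share the difference between control and FXR mice. Among the enzymes, deviations from the group means ran together most for Loxl1 and Plod2 in WAT, at 0.959 over 8 arrays, and for Loxl1 and P4ha1 in BAT, at 0.637 over 10 arrays.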

How the data were processed

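Per the labels, 500 ng of total RNA of each sample was labelled with biotin for 1 Affymetrix array. The deposited values are linear intensities, 1 for each probe set and array, and the sources used here do not state how the authors summarised and normalized them. The platform annotation listed a single symbol for 21640 of 34760 probe sets, several for 1321 and none for 11799. The gene IDs of 21553 of the first were in the RefSeq gene table, with 0 differing symbols. For 954 genes with several probe sets the brightest was used, leaving 19937 genes. The deposited intensities were used as log2(intensity + 1), with no gene removed. The tests were two-sided moderated tests of limma 3.58.1 (lmFit, eBayes) under R 4.3.3: FXR minus control over the 10 BAT arrays and the 8 WAT arrays, the difference of these changes over all 18, and control BAT minus control WAT over 9, with Benjamini-Hochberg adjustment over all genes and a threshold of 0.05. The fits were tested on simulated data. Within-array values of related genes were tested with exact permutation tests.

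The members and gene lists were chosen with earlier results of these data known. All 10 enzymes and all partners may be named; of other lists, up to 6 called genes per comparison with the smallest adjusted p; and the 3 genes most alike to the 3 called enzymes with the largest BAT differences and to the enzyme with the largest WAT difference. Mfap5 stands both among the elastic fibre genes and the fibroblast markers. Groups came from the sample titles. The number of arrays limits the precision. Other settings were quantile normalization, centring on the array median, pseudocounts of 0 and 16, removal of genes bright on fewer than 4 arrays, the mean over probe sets, intensity trend with robust variances, the replicate number as a block, 1 fit of all 18 arrays, and leaving out arrays.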

Additional observations from a re-analysis of the deposited data

Results flagged for a closer look

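In control WAT, P4ha1 was at 7.24 on array 3 and at 7.01 to 7.03 on the other 3 arrays, a gap large against the range of the group. In FXR WAT, Plod2 was at 6.65 on array 4 and at 6.35 to 6.38 on the other 3 arrays. Lox, Loxl3, P4ha1, Loxl1 and Plod1 were also highest on array 4. Chance alone sets apart about 1 in 20 groups by this measure. Among 9 enzymes in 4 groups it would thus set apart a few. Plod1 is the enzyme that passed the test of a difference between the tissues, at 0.51 (WAT minus BAT). This call was lost in 9 of 28 other settings.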

How the results depend on the processing

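Lox, Loxl3 and P4ha2 kept their rise in BAT under all 21 other settings, with Lox from 0.77 to 0.93; Loxl4 lost its call in 8 of them and Plod2 in 1. No FXR difference of an enzyme within a tissue changed sign. In BAT the count of all genes passing was 3142, and it was 4852 with centring on the array median (776 higher and 4076 lower, against 1398 and 1744), 1416 without control BAT 2 and 4, and 1913 without FXR BAT 1, 2 and 4, where 3 enzymes passed; leaving out arrays 1 at a time gave 2198 to 3685 genes and 4 to 5 enzymes. In WAT 265 genes passed, 403 with dim genes removed and 411 in 1 fit of all 18 arrays, and 49 to 336 genes and 0 to 1 enzymes with arrays left out in turn. There 2 enzymes passed after quantile normalization, with dim genes removed and with the replicate block, and 3 in the fit of all 18 arrays. For the difference between tissues, 1288 genes passed, 727 without control BAT 2 and 4; with centring the split was 1627 higher and 245 lower, against 885 and 403. There 0 enzymes passed after quantile normalization, without control BAT 2 and 4 and without FXR BAT 1, 2 and 4, and 0 to 1 with arrays left out in turn (908 to 1690 genes). Between control tissues 19292 genes passed, 11577 after quantile normalization (4714 higher and 6863 lower) and 19176 to 19244 with arrays left out in turn; with centring 7216 were higher and 9324 lower, against 18897 and 395. Signs of the difference between tissues, none of them passing, reversed after quantile normalization for Loxl3 (0.0091), Loxl4 (0.057), P4ha2 (0.0039) and Plod2 (0.12); with centring for Loxl4 (0.0075), P4ha1 (0.055) and Plod2 (0.015); without FXR BAT 1, 2 and 4 for P4ha1 (0.040) and Plod2 (0.0044); and for P4ha1 with arrays left out in turn (-0.064 to 0.061). Control BAT minus control WAT reversed after quantile normalization for Lox (-0.63), Loxl1 (-0.26), Loxl3 (-0.55), Loxl4 (-0.24), P4ha1 (-0.36), P4ha2 (-0.51), Plod1 (-0.30) and Plod2 (-0.34), and with centring for Lox (-0.27), Loxl3 (-0.40), Loxl4 (-0.31), P4ha2 (-0.30), P4ha3 (-0.16) and Plod2 (-0.27). Lox minus Loxl1 in WAT ran from -0.014 to 0.19 with arrays left out in turn. The causes were not tested, beyond the fewer genes or arrays of some fits. Loxl4 and P4ha3 were not in the WAT fit with dim genes removed.

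Same-numbered arrays did not deviate together in every pair (correlations ran from -0.493 to 0.276 for BAT pairs and from 0.0085 to 0.157 for WAT pairs). Such correlations cannot settle whether the numbers pair the samples. The main fits used no pairing. With the replicate block 2741 genes and 4 enzymes passed in BAT, 237 genes and 2 enzymes in WAT, where Lox had adjusted p = 0.0191 (limma), and 1437 genes and 1 enzyme for the difference between tissues. Between the control tissues 19302 genes and 9 enzymes passed with the block.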
